A study of Danio rerio with 20 samples.

Results

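The genes described here code for the protein parts of the cytosolic ribosome, the particle that translates messenger RNA, in the brain of the zebrafish Danio rerio. They were chosen by symbol: RPL or RPS followed by a digit in either case, or rpsa, rplp0, rplp1, rplp2 or rplp2l, with symbols starting with rps6k left out, and with at least 10 counts in at least 5 libraries. The rule found 84 Ensembl gene identifiers among the 32105 of the count table, and all 84 passed the filter on low counts and were tested beside 21148 genes in all. By their symbols 47 belong to the large subunit and 36 to the small subunit. The remaining gene, rps19bp1, codes for a binding partner of the small subunit protein RPS19 and is not itself a ribosomal protein; it is kept because the rule names it. Many zebrafish identifiers carry an upper-case, human-style symbol (RPS4Y2 is one), and 3 symbols, RPL5 and RPS26 among them, are each shared by a pair of identifiers, which are told apart by their identifier. No identifier carried the symbol rpsa, and that gene is not analysed here.

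The libraries were made from brain RNA of male fish of the strain AB JxTu in 4 groups of 5: exercised fish of 3 years, unexercised fish of 3 years, exercised fish of 1 year and unexercised fish of 1 year. Exercised fish were swum in a swim tunnel, in which a fish swims against a current; the labels give no duration. All fish shared the strain, sex and tissue, and the labels name no altered gene. Whether every library stands for its own animal is not labelled, and the p-values below rest on the variation among libraries, which may be technical. Ages were compared between different fish.

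A ribosome holds a single copy of most of its proteins, and cells make these proteins in matched amounts. In vertebrates their messenger RNAs begin with a tract of pyrimidines that places their translation under the control of the kinase mTOR, a sensor of nutrients and growth signals, and phosphorylation of RPS6 by S6 kinase is a standard readout of that pathway in neurons. The stalk proteins RPLP0, RPLP1 and RPLP2 recruit elongation factors. RPL5 and RPL11 also bind the p53 inhibitor MDM2 when ribosome assembly fails.

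Depth ranged between 26.7 and 34.6 M counts in exercised 3-year fish, between 25.2 and 30.3 M in unexercised 3-year fish, between 23.4 and 31.9 M in exercised 1-year fish and between 26.5 and 31.9 M in unexercised 1-year fish. Summed markers of neurons (6540 to 9320 CPM over the 20 libraries), oligodendrocytes (10000 to 20100 CPM) and radial glia (4000 to 6160 CPM) were present in every library, and none of the matched markers of any list was at 0 in every library. CPM is a gene's count relative to the total of its library after TMM scaling, which aligns the bulk of the genes between libraries. Since bulk tissue was sequenced, fewer cells of a type and less RNA per cell cannot be told apart.

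Per length of transcript, the 84 genes differed over a wide range while most of them lay close together. RPKM, a read density per kilobase of transcript, was recomputed from CPM and the gene lengths implied by the deposited values. The highest mean levels over the 20 libraries were those of rpl32 (553 RPKM), the stalk protein gene RPLP0 (532), RPS14 (511), RPL26 (493) and RPS15 (472). The lowest were those of rps11l (4.95 RPKM), RPL7L1 (11.3), which codes for a relative of RPL7 with a role in assembly of the large subunit, rps19bp1 (12.5) and rps27l (17.3). RPL22L1, a relative of RPL22, averaged 57.7 RPKM. The low end of the range thus held mostly like-named relatives of other members.

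**Figure D1:**
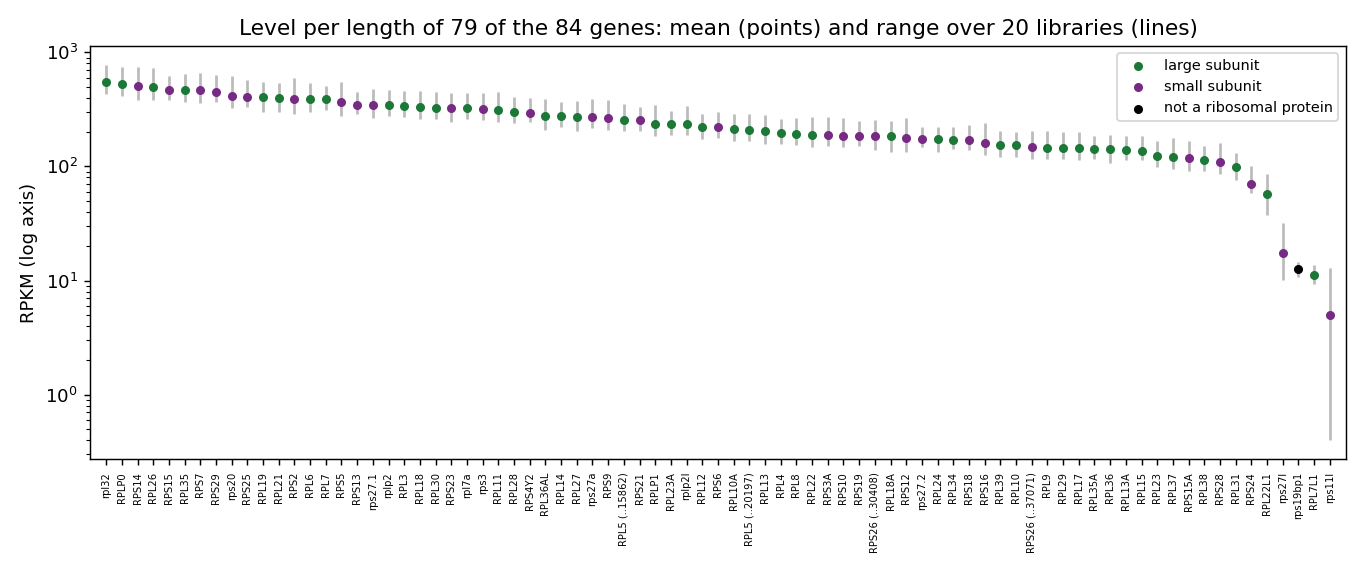
Mean recomputed RPKM of 79 of the 84 genes (points, log axis) with the lowest and highest library (lines), from the highest mean at the left to the lowest at the right. Most genes form an even slope, and rps27l, rps19bp1, RPL7L1 and rps11l lie apart at the right end, with rps11l spanning the widest range.

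Summed over the 84 genes, the ribosomal protein genes took 2.262 ± 0.336% of all counts in exercised 3-year fish, 2.141 ± 0.264% in unexercised 3-year fish, 1.892 ± 0.158% in exercised 1-year fish and 2.007 ± 0.388% in unexercised 1-year fish (SD, n = 5 each). The 95% Wilson interval of a single library's share was at most 0.0063 percentage points to either side, which covers counting error only. Exercised 3-year fish ran between 1.963% and 2.8335% with a median of 2.1555%, and unexercised 3-year fish between 1.9241% and 2.5439% with a median of 2.0034%. Exercised 1-year fish ran between 1.6909% and 2.1344% with a median of 1.8741%, and unexercised 1-year fish between 1.7471% and 2.6928% with a median of 1.8754%. All 4 groups overlapped, and neighbours in the order of the means lay within each other's spread. The outermost means were further apart: the exercised 3-year mean, 2.262%, lay above the highest exercised 1-year library, 2.1344%.

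The genes moved together from library to library. In unexercised 1-year replicate 1, 82 of the 84 genes were above their own median over the 20 libraries, by a median of 0.48 on the log2 scale, and 41 genes had their highest value of all libraries there. Exercised 3-year replicate 1 also had 82 genes above their median, by a median of 0.50, and 38 genes were highest there. Unexercised 3-year replicate 3 had 82 genes above, by a median of 0.38. At the other end, unexercised 1-year replicate 2 had 1 gene above its median and a median deviation of -0.25, and exercised 1-year replicate 1 had 3 genes above and a median deviation of -0.22. The spread of these library medians within groups, an SD of 0.21, was larger than every group difference in the median of the 84 genes reported below. That SD is of single libraries, whereas a group difference compares groups of 5 libraries. It is therefore not the error of such a difference and does not place the differences within noise.

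**Figure D2:**
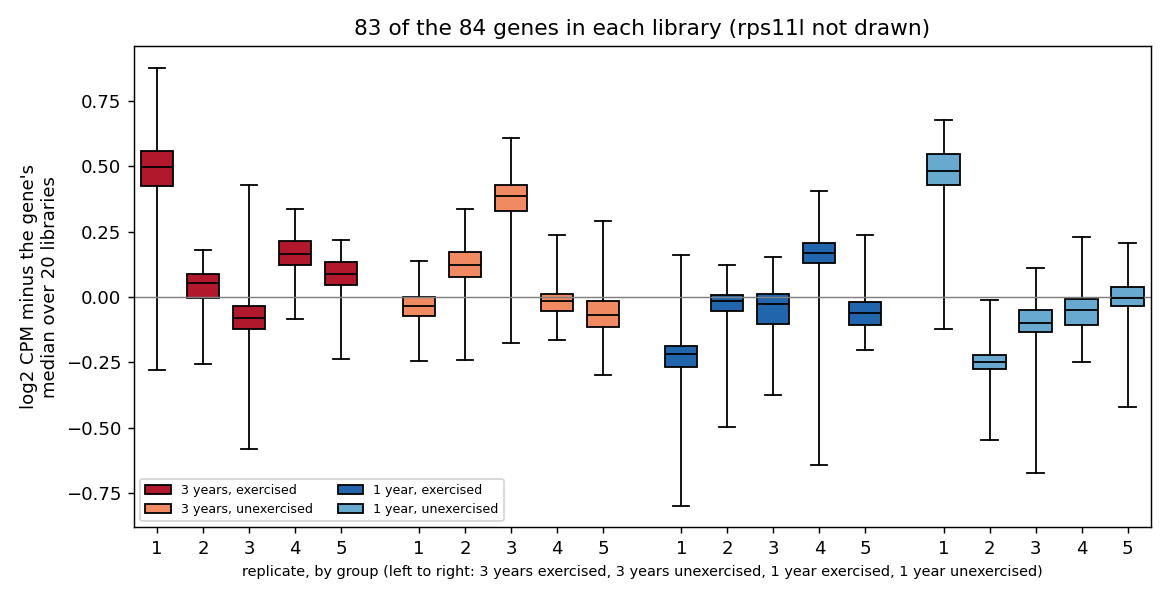
Log2 CPM of 83 of the 84 genes minus each gene's median over the 20 libraries, 1 box per library (line, median; box, quartiles; whiskers, lowest and highest gene), grouped as exercised and unexercised 3-year and exercised and unexercised 1-year fish. Boxes of exercised 3-year replicate 1, unexercised 3-year replicate 3 and unexercised 1-year replicate 1 stand above the rest with their whole box, and rps11l is left out because it covers a far wider range.

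Relative to one another the genes varied little. The coefficient of variation over the 20 libraries had a median of 16.1% for CPM, and a median of 4.19% once each gene was expressed as its share of the 84 genes' summed counts. By that share 57 of the 84 genes varied by less than 5% and 75 by less than 10%. The 16.1% compares with a median coefficient of variation of CPM of 21.9% over all genes tested. Over 2123 other genes with a mean of at least 90 CPM that median was 11.7%, lower than in the 84 genes. The 4.19% has no such comparison, since no other gene set was expressed as shares of its own sum. Genes that move together vary less in such shares by construction. Among the largest coefficients of variation of CPM were those of rps11l (107.7%), rps27l (30.8%), RPL22L1 (21.8%) and rps20 (19.7%). Of 1680 such shares, 15 lay more than 0.5 on the log2 scale from the gene's own median, and they came from 4 genes, rps11l, rps27l and RPL19 among them.

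RPL19, a large subunit protein gene, stood out in a single library. It took 2.652% of the summed ribosomal protein counts in exercised 3-year replicate 3 and at most 2.002% in any other. In CPM, RPL19 had 541, 374, 507, 430 and 389 in exercised 3-year fish, 378, 412, 487, 358 and 366 in unexercised 3-year fish, 325, 338, 351, 401 and 350 in exercised 1-year fish and 496, 295, 372, 342 and 384 in unexercised 1-year fish. The same library had the highest share of RPS2, a small subunit protein gene, with 3.692% against at most 3.088% elsewhere; RPS2 is named because its values stood out.

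Some marker lists were at an end of their range in the libraries of highest summed share, and others were not. The lowest summed neuron markers of the 20 libraries were in exercised 3-year replicate 1 (6543 CPM) and unexercised 1-year replicate 1 (6773 CPM), which had the 2 highest ribosomal protein shares. The markers of microglia and macrophages, the resident immune cells of the brain (all 12 symbols matched, 14 identifiers), summed to 599 to 1060 CPM in exercised 3-year fish, 521 to 892 CPM in unexercised 3-year fish, 494 to 574 CPM in exercised 1-year fish and 384 to 1100 CPM in unexercised 1-year fish. Their highest sums were in unexercised 1-year replicate 1 (1101 CPM) and exercised 3-year replicate 1 (1057 CPM). Epidermis markers (11 of 12 symbols) summed to 390 to 552 CPM in exercised 3-year fish, 328 to 2110 CPM in unexercised 3-year fish, 424 to 717 CPM in exercised 1-year fish and 422 to 3250 CPM in unexercised 1-year fish. Muscle markers (12 of 14 symbols) summed to 19.4 to 533 CPM, 15.1 to 348 CPM, 18.1 to 153 CPM and 12.5 to 5100 CPM in the same order of groups. Pituitary markers reached 1707 CPM in exercised 3-year replicate 1 and at most 6.13 CPM in any other library. Epidermis markers were at 512 CPM in that library, which had the highest share. Unexercised 1-year replicate 2, with a share of 1.7471%, had 767 CPM of them. Radial glia markers were at their lowest in unexercised 1-year replicate 1 (3995 CPM) and at 5676 CPM in exercised 3-year replicate 1. The part of these cell types in the ribosomal protein levels was not tested.

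**Figure D3:**
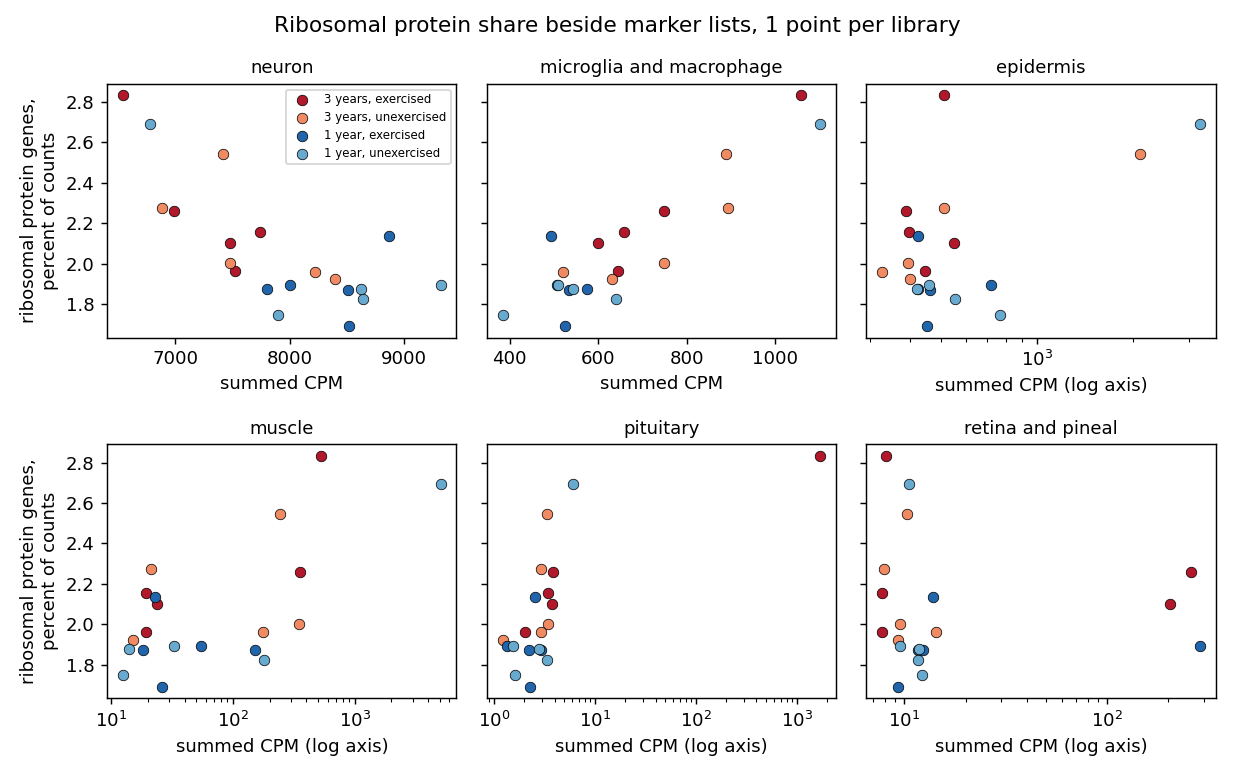
Share of counts in the 84 genes (vertical axis, percent) against the summed CPM of 6 marker lists (horizontal axes, 4 of them logarithmic), 1 point per library, coloured by group. The libraries with the 3 highest shares have neuron sums between 6540 and 7420 CPM and microglia sums of 889 CPM or more, and they include both libraries with the highest epidermis sums and the library with the highest muscle sum.

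With age, in exercised fish, 2 of the 84 ribosomal protein genes passed the test: rps27l was higher and rps11l was lower at 3 years. Among all 21148 genes tested, 10.6% passed in this comparison, beside 2.38% of the 84. The fold changes of the 84 genes were mostly on one side, with 81 positive and 3 negative, a median of 0.18 against 0.01 over all genes tested, and 0.18 and 0.19 for the large and small subunit. The median standard error of a gene was 0.14, and since the genes moved together between libraries, the 81 positive values are not separate observations. Without the 3 libraries of highest ribosomal protein share, 78 values were positive, their median was 0.09 and rps27l alone passed (6.59% of all genes did). Of these libraries only exercised 3-year replicate 1 is in the compared groups, so leaving it out lowers the 3-year values by design. Here and below, this fit shows how far the values of the 84 genes rest on those libraries and tests nothing about them.

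rps27l, a small-subunit gene that in mammals is a p53 target, was the gene called higher. It had 18.9, 10.4, 10.2, 12.99 and 9.21 CPM in exercised 3-year fish, against 5.91, 7.27, 7.93, 6.58 and 9.23 CPM in exercised 1-year fish. It had 10.9, 12.6, 12.4, 12.1 and 12.6 CPM in unexercised 3-year fish, against 13.3, 7.03, 6.45, 10.48 and 8.26 CPM in unexercised 1-year fish. In both exercise groups the ages overlapped through a single library, exercised 3-year replicate 5 just below exercised 1-year replicate 5, and unexercised 1-year replicate 1 above all unexercised 3-year libraries. The log2 fold change was 0.74 ± 0.20 (SE, edgeR adjusted p = 0.0280) with exercise and 0.41 ± 0.20 (edgeR adjusted p = 0.372) without, and the difference between the 2 was 0.33 ± 0.29 (edgeR adjusted p = 0.982). Averaged over both exercise groups it was 0.57 ± 0.14 (edgeR adjusted p = 0.0110). The call with exercise was lost without exercised 3-year replicate 1, at a log2 fold change of 0.53 (edgeR adjusted p = 0.10), and without exercised 1-year replicate 1, 3 or 4; the averaged call held without each of the 20 libraries in turn. The other genes named for RPS27 did not pass: in exercised 3-year against exercised 1-year fish, rps27.1 averaged 220 ± 35.9 and 179 ± 15.5 CPM, and rps27.2 averaged 204 ± 25.9 and 177 ± 12.5 CPM (SD, n = 5).

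rps11l, a gene whose symbol places it beside the small subunit proteins, was measured at either of a pair of levels with nothing between them. In 12 libraries it had between 6 and 17 counts (0.221 to 0.542 CPM), and in 8 libraries between 139 and 212 counts (5.01 to 7.15 CPM). The high level was seen in 0 of 5 exercised 3-year libraries, 1 of 5 unexercised 3-year libraries, 3 of 5 exercised 1-year libraries and 4 of 5 unexercised 1-year libraries. The high libraries at 1 year were exercised replicates 2, 3 and 5 and unexercised replicates 2 to 5, and at 3 years unexercised replicate 1. The log2 fold change for age was -3.41 ± 0.99 (SE, edgeR adjusted p = 0.0341) with exercise, -1.56 ± 0.89 (edgeR adjusted p = 0.448) without, and -2.49 ± 0.66 (edgeR adjusted p = 0.0156) averaged over both. The group means thus lie between the levels wherever a group holds both. The test takes the libraries of a group to scatter around 1 mean. Its standard errors and p-values therefore do not measure the spread of a gene on a pair of levels. With exercise, 0 of 5 libraries at 3 years and 3 of 5 at 1 year were high, a count that was not tested. The call with exercise held in 12 of the 20 fits that each left out 1 library; it was lost without exercised 1-year replicate 2, 3 or 5 or any of the 5 exercised 3-year libraries, and the averaged call held in all 20. No source used here says how reads common to rps11l and other genes were assigned, so the values of rps11l are uncertain.

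Without exercise, 0 of the 84 genes passed for age, where 0.586% of all genes tested did. In edgeR 0 of the 84 had an unadjusted p below 0.05, beside 14.1% of all genes. DESeq2 also called 0 of the 84, beside 2.6% of all genes it tested. In this comparison 73 fold changes were positive and 11 negative, with a median of 0.04 against 0.00 over all genes. Leaving out unexercised 1-year replicate 1 brought the median to 0.20 with 83 positive, and leaving out unexercised 3-year replicate 3 brought it to -0.04 with 17 positive. Averaged over both exercise groups, rps27l and rps11l passed, again 2 of 84, where 16.9% of all genes tested passed, and 81 values were positive with a median of 0.11. Here 1 library decided the count: without unexercised 1-year replicate 1, 11 of the 84 passed, where 20.1% of all genes did. Among them were RPL13, RPL19, RPL23, RPL37, rplp2l, rps27.1, rps27a, rps27l and RPS9 as higher at 3 years and rps11l as lower. The 84 genes thus still passed less often than all genes. That library had the highest share at 1 year, so leaving it out raises the age differences of the 84 genes by design. Without the 3 libraries of highest share, 4 passed: rps27l, RPL37 and rps27.1 as higher and rps11l as lower. The share of all genes that passed in this fit is not given here. With all 20 libraries that share was 16.9%, above 4 of 84, so these calls are not read as a result about the 84 genes.

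**Figure D4:**
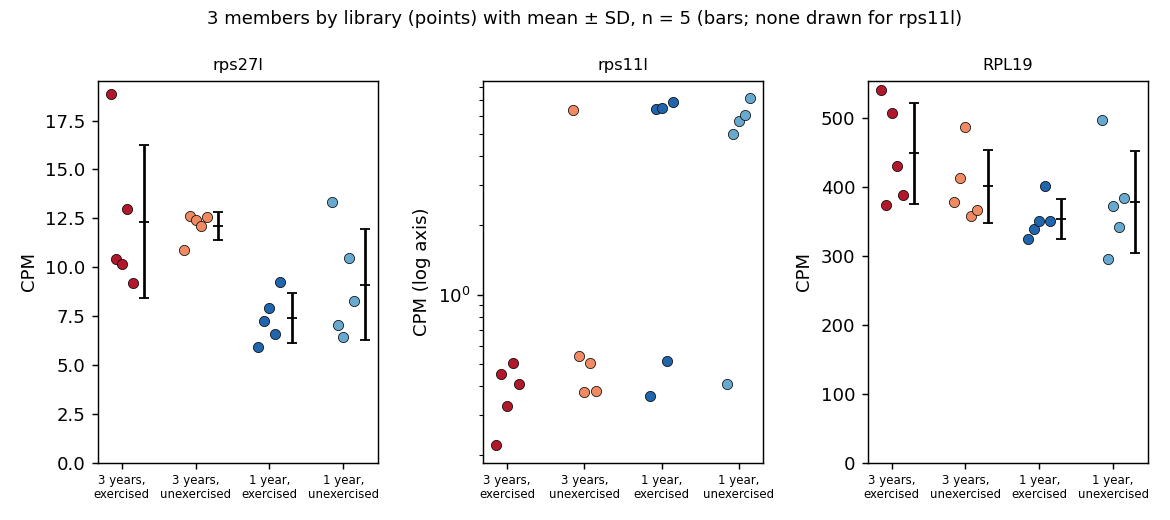
CPM of rps27l, rps11l (log axis) and RPL19 in each library (points) with the mean ± SD of the group (bars, n = 5; none for rps11l). rps27l is higher in most 3-year than 1-year libraries, rps11l falls on a low and a high level, and RPL19 overlaps between all groups.

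None of the 84 genes passed the test for exercise at either age. At 3 years 0 of 84 passed in edgeR, where 0.0284% of all genes tested did. In edgeR 2 of the 84 had an unadjusted p below 0.05, beside 8.07% of all genes. DESeq2 also called 0 of the 84, beside 0.474% of all genes it tested. Of the fold changes 76 were positive and 8 negative, with a median of 0.07 against 0.01 over all genes. rps11l had the smallest p, at -2.08 ± 0.96 (SE, edgeR adjusted p = 0.589). RPL7L1 had 20.8, 17.9, 17.2, 22.4 and 18.7 CPM in exercised 3-year fish, against 20.0, 23.7, 22.8, 20.6 and 19.9 CPM in unexercised 3-year fish, and RPL7L1 and rps19bp1 were at -0.14 ± 0.10 and -0.12 ± 0.09. Their groups overlapped. Without exercised 3-year replicate 1 the median of the 84 genes was -0.03 with 22 positive, and without unexercised 3-year replicate 3 it was 0.16 with 79 positive. Each of these libraries had the highest share of its group, so leaving it out moves these values by design.

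At 1 year 0 of 84 passed in edgeR, where 0.0189% of all genes tested did. In edgeR 1 of the 84 had an unadjusted p below 0.05, beside 11.5% of all genes. DESeq2 also called 0 of the 84, beside 1.33% of all genes it tested. Here 5 fold changes were positive and 79 negative, with a median of -0.07 against -0.02 over all genes. Among the genes with the smallest p were rps27l at -0.30 ± 0.20 (SE), RPL38 at -0.14 ± 0.11, RPS23 at -0.16 ± 0.13 and the stalk protein gene RPLP1 at -0.15 ± 0.13, with edgeR adjusted p-values between 0.589 and 0.696. The direction of the 84 genes rested on unexercised 1-year replicate 1: without that library 77 values were positive and the median was 0.09. That library had the highest share at 1 year, so leaving it out raises these exercise values by design.

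The difference between the exercise effects of the 2 ages is also the difference between the age effects with and without exercise. It passed for 0 of 84 genes in edgeR, where 0.00473% of all genes tested passed. In edgeR 1 of the 84 had an unadjusted p below 0.05, beside 4.75% of all genes. DESeq2 also called 0 of the 84, beside 0.0473% of all genes it tested. Of the 84 values 79 were positive, with a median of 0.14 against 0.01 over all genes. Among the smallest p were those of RPLP1, with a difference of 0.28 ± 0.19 (SE, edgeR adjusted p = 0.982), rps11l at -1.85 ± 1.28 and RPL19 at 0.26 ± 0.18, each with the same adjusted p. Without unexercised 1-year replicate 1, 29 of the 84 differences were positive and the median was -0.02. Without the 3 libraries of highest share 23 were positive and the median was -0.03. Since unexercised 1-year replicate 1 had a high share, leaving it out lowers these differences by design. Averaged over both ages, exercise passed for 0 of 84 genes in edgeR, where 0.908% of all genes tested passed. In edgeR 0 of the 84 had an unadjusted p below 0.05, beside 13.8% of all genes. DESeq2 called 0 of the 84, beside 3.26% of all genes it tested. Of these averaged values 34 were positive and 50 negative, and without the 3 libraries 76 were positive. rps27l was at -0.14 ± 0.14 and RPS23 at -0.13 ± 0.09 (SE).

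**Figure D5:**
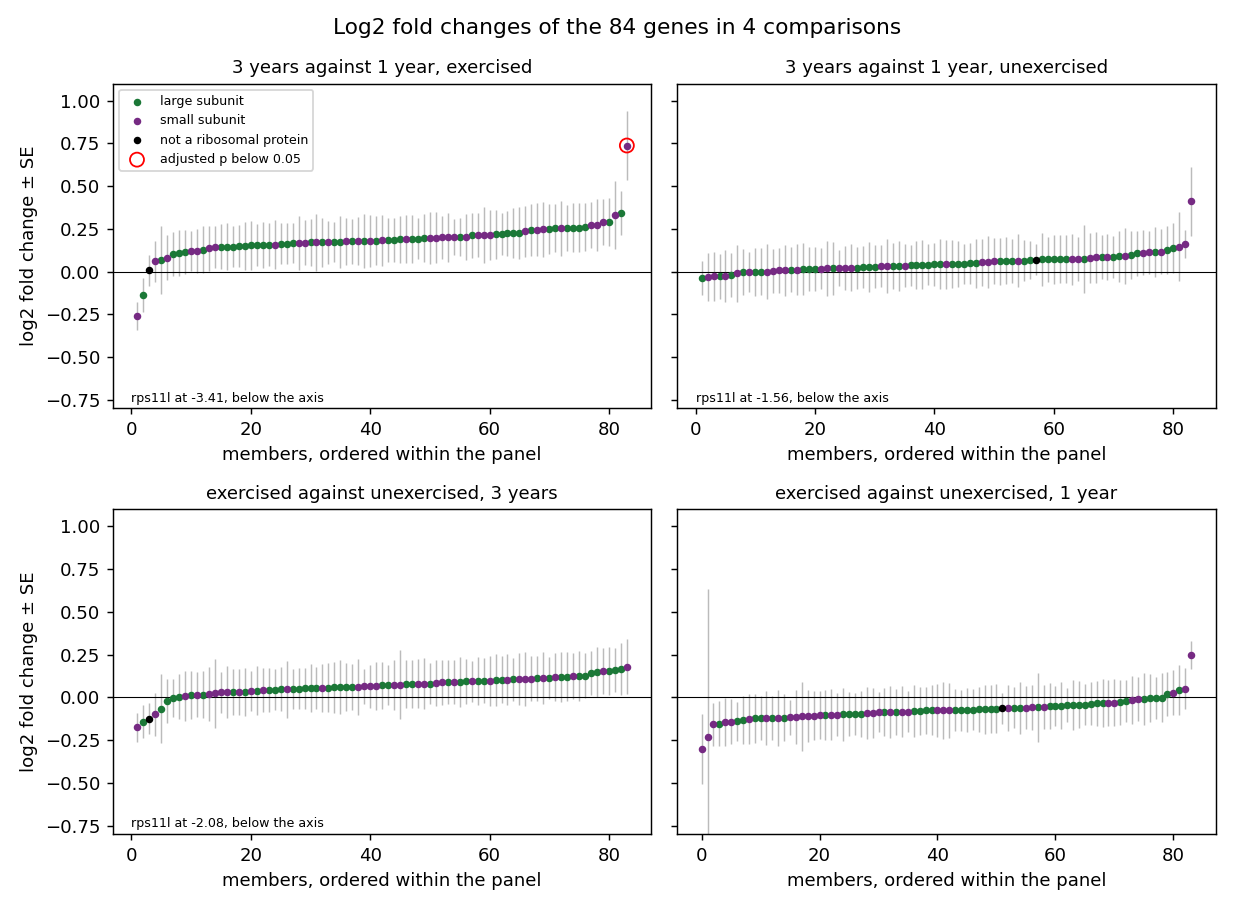
Log2 fold changes ± SE of the 84 genes in 4 comparisons, ordered within each panel and coloured by subunit, with a red ring where the edgeR adjusted p was below 0.05. Values lie mostly above 0 for age with and without exercise and for exercise at 3 years, and mostly below 0 for exercise at 1 year. rps11l lies below the axis in 3 panels, and it passed the threshold for age with exercise.

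Genes known for roles in signalling or for special positions in the ribosome did not stand apart by the test. RPS6, the substrate of S6 kinase, averaged 380 ± 60.03, 358 ± 49.6, 330 ± 31.5 and 344 ± 76.8 CPM in exercised 3-year, unexercised 3-year, exercised 1-year and unexercised 1-year fish (SD, n = 5, here and below in the same order). RPL11, one of the MDM2 binders, averaged 215 ± 42.7, 206 ± 35.5, 190 ± 18.6 and 203 ± 52.1 CPM. The RPL5 copies averaged 292 ± 49.0, 281 ± 54.5, 250 ± 22.8 and 264 ± 63.7 CPM for ENSDARG00000015862 and 232 ± 34.9, 223 ± 37.6, 203 ± 19.3 and 212 ± 49.2 CPM for ENSDARG00000020197. None of these 4 passed in any of the 7 comparisons, and their groups overlapped in every comparison of one group with another. Of the stalk proteins, RPLP0 averaged 643 ± 90.8, 629 ± 73.3, 595 ± 65.4 and 630 ± 148 CPM, and RPLP1 310 ± 74.8, 284 ± 19.6, 260 ± 26.9 and 289 ± 44.5 CPM. rps27a, which is made as a fusion with ubiquitin, averaged 304 ± 42.5, 302 ± 54.5, 262 ± 20.4 and 286 ± 74.4 CPM. RPL39, which lines the exit tunnel, averaged 195 ± 23.4, 187 ± 33.6, 175 ± 16.99 and 181 ± 38.9 CPM, and RPL10, which joins the large subunit late in its assembly, 350 ± 47.1, 338 ± 45.6, 313 ± 28.2 and 328 ± 62.4 CPM.

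Pairs of related genes were also compared as the share that one copy takes of the pair's counts. This removes only a shift that both copies follow to the same degree. Over 9 pairs and 4 comparisons of group against group, 36 two-sided exact permutation tests were run. With 5 against 5 libraries an exact p cannot be below 0.00794. None passed after Benjamini-Hochberg adjustment over the 36 tests. Tests at that lowest exact p had an adjusted p of 0.143, so a single pair could not pass here. The lack of calls therefore says little about the pairs. RPL7L1 took 4.35 ± 0.351% of the summed counts of RPL7L1 and RPL7 in exercised 3-year fish and 5.31 ± 0.578% in exercised 1-year fish (SD, n = 5; exact p = 0.00794, adjusted p = 0.143). These groups did not overlap, which is the same fact as the lowest possible exact p. The highest exercised 3-year share was 4.72% and the lowest exercised 1-year share 4.75%. For exercise at 3 years, RPL7L1 took 4.35 ± 0.351% in exercised and 4.93 ± 0.351% in unexercised fish (exact p = 0.0317, adjusted p = 0.254). rplp2l took a larger share of its pair with rplp2 in exercised fish at both ages, 46.8 ± 1.12% against 44.7 ± 1.54% in unexercised fish at 3 years (exact p = 0.0476, adjusted p = 0.254) and 46.2 ± 1.15% against 44.0 ± 1.15% at 1 year (exact p = 0.0397, adjusted p = 0.254). RPL22L1 took 21.6 ± 2.4%, 23.4 ± 2.80%, 24.0 ± 2.07% and 23.2 ± 2.41% of its pair with RPL22 in exercised 3-year, unexercised 3-year, exercised 1-year and unexercised 1-year fish, and no exact p of this pair was below 0.143. The pairs of RPL5, RPS26 and RPS27 copies differed by at most 1.78 percentage points between groups, with exact p-values of 0.0635 or more.

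Other genes of translation were counted from lists. Over all 21148 genes tested, 10.6% passed for age with exercise, 16.9% for age averaged over exercise and 0.908% for exercise averaged over both ages. Each list's count is given beside that share, and with few genes in a list a single call moves it widely. Of 4 tested ribosomal protein genes that the naming rule does not reach, RACK1, FAU and faub among them, 0 passed in any comparison, and their median log2 fold change for age with exercise was 0.13. Of 16 genes of translation elongation, EEF2K, the kinase that inhibits elongation factor 2, was higher after exercise averaged over both ages. It averaged 47.6 against 34.7 CPM (log2 fold change 0.46 ± 0.08, edgeR adjusted p = 0.0114). EEF1A1 (ENSDARG00000069951) was lower at 3 years averaged over exercise (-0.31 ± 0.09, edgeR adjusted p = 0.0283). Without the 3 libraries of highest share its edgeR adjusted p was 0.0535. In either comparison 1 gene was 6.25% of the list. The genes of this list had a median log2 fold change of 0.05 for age with exercise, beside 0.18 for the 84 ribosomal protein genes.

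Genes of translation initiation, 51 in all, had 1 higher and 3 lower for age with exercise, with a median of -0.05. For age averaged over exercise 1 was higher and 6 lower, with a median of -0.07. These calls were 7.84% and 13.7% of the list, below the 10.6% and 16.9% of all genes, so the counts do not set the list apart. EIF3E, a subunit of the initiation factor complex eIF3, was higher at 3 years, at 37.9 against 27.3 CPM in exercised fish (0.47 ± 0.09, edgeR adjusted p = 0.00595). eif4e1c, a relative of the cap-binding protein eIF4E, was lower, at 47.4 against 70.6 CPM (-0.57 ± 0.13, edgeR adjusted p = 0.0120). EIF2S2, a subunit of eIF2, was lower at 96.6 against 116 CPM (-0.26 ± 0.06, edgeR adjusted p = 0.0149). For exercise averaged over both ages, 1 gene of translation initiation was higher and 1 lower, 3.92% of the list against 0.908% of all genes. The higher gene was eif4e1c (0.42 ± 0.09, edgeR adjusted p = 0.036), and its call held in 9 of the 20 fits that each left out 1 library. Of 102 genes of ribosome assembly and rRNA synthesis, 2 were higher and 0 lower for age with exercise, 1.96% of the list against 10.6% of all genes, with a median of -0.01. They were GNL2, a nucleolar GTPase (1.28 ± 0.40, edgeR adjusted p = 0.0456), and TAF1B, a subunit of a transcription factor of RNA polymerase I (0.29 ± 0.09, edgeR adjusted p = 0.0492), and both calls were lost without the 3 libraries of highest share. They held in 7 and 3 of the 20 fits that each left out 1 library. For age averaged over exercise, 2 genes of this list were higher and 2 lower, 3.92% of the list against 16.9% of all genes. For exercise averaged over both ages, 1 was lower, 0.98% of the list against 0.908% of all genes.

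Of 42 genes of mTOR, S6 kinase and Myc control, 1 passed for exercise averaged over both ages (2.38% of the list against 0.908% of all genes), rps6kb1a, which codes for a zebrafish S6 kinase. It averaged 18.2 CPM in exercised and 9.39 CPM in unexercised fish (0.95 ± 0.13, edgeR adjusted p = 0.00482), and 11.01 CPM at 3 years and 16.6 CPM at 1 year (-0.59 ± 0.13, edgeR adjusted p = 0.00649). For age averaged over exercise this list had 2 genes higher and 4 lower, 14.3% of the list against 16.9% of all genes. DEPTOR, an inhibitor of mTOR, was lower at 3 years (-0.44 ± 0.09, edgeR adjusted p = 0.00323), as was LARP1, which binds messenger RNAs with a pyrimidine tract (-0.30 ± 0.07, edgeR adjusted p = 0.00591). The calls of rps6kb1a, EEF2K, EIF3E, DEPTOR and LARP1 held without the 3 libraries of highest share. Without 6 libraries, which also leaves out those with high retina markers, rps6kb1a had a log2 fold change of 0.88 for exercise (edgeR adjusted p = 0.0961). Of exercised 3-year fish this fit kept replicates 3 and 5 alone. EEF2K was at 0.46 in that fit (edgeR adjusted p = 0.105). There 0.00463% of all genes passed for exercise averaged over both ages, against 0.908% with all libraries, so the lost calls are not particular to these 2 genes.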

How the data were processed

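The authors deposited whole-number read counts for 32105 Ensembl identifiers in 20 libraries and RPKM values for the same genes. The kit was TruSeq RNA v2, per the labels' protocols. It keeps no strand information, so reads of overlapping antisense genes may be mixed in. The genome build GRCz10 and the tools featureCounts 1.4.6-p4, STAR 2.4.1d and bcl2fastq 1.8.4 are listed in the submitters' processing notes. No source used here states how reads common to near-identical copies were counted, so values of paired copies are uncertain. The gene length implied by a deposited RPKM value and its count varied between libraries (median CV 13.8%) unless the library totals were applied in turn down the table (0.00216%, 10100 genes). The deposited RPKM values therefore served only for implied lengths and alternatives.

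Symbols came from a table that matched 26269 identifiers. The test was that of edgeR 4.0.16 under R 4.3.3, run on the counts (filterByExpr with a minimum count of 10 and total of 15, TMM, robust quasi-likelihood F-test, a mean per group over all 20 libraries, 7 comparisons). Fold changes are exercised over unexercised or 3 years over 1 year, and errors are standard errors derived from F. A gene passed at a Benjamini-Hochberg adjusted p below 0.05 over all 21148 genes; no p was adjusted over the 84 genes alone. DESeq2 1.42.0 and limma 3.58.1, on log2(RPKM + 1) and log2(RPKM + 0.1), were alternatives. On simulated data for age with exercise (20963 genes), the test recovered 31.4% of genes changed by 0.5 on the log2 scale and 78.6% of those changed by 1, with 4.39% of calls false. Each gene was simulated on its own, with no shift common to a library, so these rates need not hold for the 84 genes. The pair tests were added after the data were examined.

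The members and all lists were chosen with earlier results of these data known. Genes named in the text were those called (or, with no call, the 5 of smallest p), the 5 highest and 5 lowest by RPKM, the 5 most variable, a set of known roles or shared symbols, and up to 3 called genes per list and direction; members and values that stood out are named where they arise. Some genes that the rule names are not reported here. Replicates were numbered in accession order, and no 2 libraries of a group were alike within sampling noise. No genome or sequence table was used here, so no sequences or coordinates are given.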

Additional observations from a re-analysis of the deposited data

Results flagged for a closer look

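In all, 36 groups of 5 libraries were examined (the summed share and 8 genes in each of the 4 groups). Of these, 3 held a library far from the other 4, with a gap to its nearest neighbour of more than 0.71 of the group's range. For normally distributed values chance gives about 1 in 20 for a single group. The genes moved together and rps11l lies on a pair of levels, so that rate is no benchmark for the 3 of 36. In unexercised 1-year fish, replicate 1 had a ribosomal protein share of 2.6928% with the next at 1.8945%, and RPS6 at 478 CPM with the next at 326 CPM. In unexercised 3-year fish, replicate 1 had rps11l at 6.37 CPM with the next at 0.542 CPM.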

How the results depend on the processing

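The labels number no replicates. No paired analysis was possible because the labels pair no libraries between groups. In all fits, the count of called genes among the 84 stayed at 0 in the 3 exercise comparisons, in their difference and in age without exercise. Its 2 calls for age with exercise became 0 without the 6 libraries with muscle, epidermis or retina genes and when libraries were scaled to the summed counts of the 84 genes, and 1 on the deposited RPKM values with a pseudocount of 1 or 0.1 and without the 3 libraries with the highest shares (this alternative and that scaling were chosen after seeing the data). Leaving out each library in turn gave 0 (without exercised 1-year replicate 3 or exercised 3-year replicate 1) to 3 calls. The 6 libraries were exercised 3-year replicates 1, 2 and 4, unexercised 3-year replicate 3, exercised 1-year replicate 3 and unexercised 1-year replicate 1. Without them the exercised 3-year group held replicates 3 and 5 alone, so that fit also compares far fewer libraries. For age averaged over exercise the 2 calls became 1 without the 6 libraries and on RPKM with a pseudocount of 1, and 4 without the 3 libraries; leaving out each library gave 2 to 11, the highest without unexercised 1-year replicate 1. The share of all genes that passed also differed between these fits. For exercise averaged over both ages it was 0.908% as reported, 0.00463% without the 6 libraries and 0.0284% with the scaling to the 84 genes. A lost call is therefore not read as particular to the 84 genes. The scaling to the 84 genes moved the median of all genes for age with exercise to -0.17, and that of the 84 genes to -0.01. The median of the 84 genes for the difference was -0.08 without the 6 libraries. With mitochondrial genes left out of the divisor, the 3 highest shares were 3.2552% (exercised 3-year replicate 1), 3.0333% (unexercised 3-year replicate 3) and 3.1448% (unexercised 1-year replicate 1). Signs turned, with no call, for RPL7L1 (0.034 and 0.037) and rps19bp1 (0.065 and 0.071) for exercise at 3 years and rps19bp1 (0.017 at both) for exercise averaged, on RPKM with pseudocounts of 1 and 0.1; for rps11l in the difference without unexercised 3-year replicate 1 (0.001, with -2.147 as the lowest value when each library was left out); and for rps27.2 in the difference without the 6 libraries (-0.054). On RPKM the median of all genes moved too, from 0.005 to 0.137 and 0.181 for exercise at 3 years (pseudocounts of 1 and 0.1). For exercise averaged it moved from -0.016 to 0.047 and 0.065. The turned RPKM values of RPL7L1 and rps19bp1 lay below these medians. The deposited RPKM values appear not to be scaled by each library's own total, so changes on them, also in counts of calls, say little about robustness. The causes were not tested. DESeq2 and edgeR with DESeq2 size factors, no filter, the membership rule as filter and TMM without the 84 genes left the counts of calls within 1.5 times. Of 28 calls of list genes, 28 held by DESeq2, 18 without the 3 libraries, 6 without the 6 libraries and 4 on RPKM with a pseudocount of 1. The share of all genes that passed differed between these fits too, so lost calls are not read as particular to the list genes. Counting depth bears most on rps11l, which had as few as 6 counts in a library.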
